A study of Mus musculus with 11 samples.

Results

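The members described here are the mouse genes named Zfp and a number, which encode zinc finger proteins, as expressed in BV2, a microglial line transformed in culture. They were selected on their expression level: a gene was taken when its mean reached 3 CPM or more in each of 4 groups of samples, where CPM is its count scaled to a common total of gene counts. Zfp36 was left out by name, since it encodes an mRNA-binding protein with a different type of finger. Of 344 such genes listed, 218 reached the level, 126 did not, and 31 of those 126 passed it in some groups but not in all. The whole series lists 36529 genes, of which 9547 reached the same level, and these 9547 serve as the background below. The level alone chose the members, so that the levels themselves are a description.

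Cells were exposed for 5 h to 25 µg/ml of a His-tagged amino-terminal fragment of human apolipoprotein E, residues 1–151, made either from the ApoE4 form (nApoE4 1–151, 3 samples) or from the ApoE3 form (nApoE3 1–151, 2 samples). The fragments differ in a single residue, which is arginine in ApoE4 and cysteine in ApoE3. Each fragment had its own untreated cells, ControlA (3 samples) for nApoE4 1–151 and ControlB (3 samples) for nApoE3 1–151. All 4 groups are the same line, with C57BL/6 as its stated strain. The labels give the untreated cells a phosphate-buffered saline vehicle whereas the methods give conditioned medium, and which one was used is not known. Because the fragments were tested in separate experiments, a difference between fragments and a difference between experiments cannot be told apart. The methods call the measurements independent, but neither they nor the labels say whether samples of a group came from separate cultures. P-values then measure the spread between these samples, which may be technical.

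Most proteins of this kind bind DNA through tandem C2H2 fingers, short loops in which a pair of cysteines and a pair of histidines hold a zinc ion. Many also carry a Krüppel-associated box (KRAB) at the amino terminus. The KRAB box recruits the scaffold protein Trim28, which brings the histone methyltransferase Setdb1, HP1 proteins and histone deacetylases to the bound site, and KRAB zinc finger proteins are best known for silencing retroviral elements. Many KRAB zinc finger genes lie side by side in clusters that grew by gene duplication. Members without a KRAB box include transcriptional activators, corepressors and proteins that act on RNA.

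The 11 libraries held 39732710 to 69768666 gene counts, and the members took 0.582% to 0.690% of them. ControlA replicate 2 stood apart from its group, with the lowest member share (0.582%, against 0.653% and 0.673% in replicates 1 and 3), and the counts that lead each nApoE4 comparison are also given without it. The median coefficient of variation of a member within a group was 6.79% in ControlA, 5.32% with nApoE4 1–151, 3.49% in ControlB and 3.41% with nApoE3 1–151. The nApoE3 experiment could therefore pass smaller changes through the test than the nApoE4 experiment. Of 14 microglia markers, 8 were over 3 CPM in every library, among them Cd68, Csf1r and Spi1, whereas P2ry12 was at 0 in all libraries and Aif1 and Cx3cr1 stayed under 1 CPM. The remaining microglia markers varied between libraries, Trem2 from 0.343 to 64.9 CPM, C1qa from 0.435 to 3.47 and Tmem119 from 1.26 to 9.26. Of the markers of other cell types, all 4 lymphocyte markers and 3 of 4 astrocyte markers were under 1 CPM throughout, but Slc1a2 reached 6.80 CPM and the oligodendrocyte marker Mbp ran from 5.13 to 23.3 CPM. The summed astrocyte markers went from 1.22 to 1.49 CPM in ControlA to 5.91 to 7.06 with nApoE4 1–151, and from 1.06 to 1.24 in ControlB to 3.996 to 4.18 with nApoE3 1–151. The summed oligodendrocyte markers were at 11.5 to 15.3, 9.16 to 11.7, 24.4 to 24.9 and 20.4 to 23.3 CPM in ControlA, nApoE4, ControlB and nApoE3 samples. The summed microglia markers ran from 3955 to 4158 CPM in ControlA, 3723 to 3772 with nApoE4 1–151, 2611 to 2724 in ControlB and 2685 to 2692 with nApoE3 1–151, and the part of all these markers in the results below was not tested. In bulk samples, fewer cells of a type and less RNA per cell cannot be told apart.

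The upstream sequences of members that changed in one direction with both fragments are shown first, because they put genes that rose beside genes that fell. For each direction the members were ranked by the smaller of their log2 changes. The first 3 with at least 150 upstream bases free of annotated exons were taken. Members with no upstream sequence at hand (Zfp704) or with a window inside the gene (Zfp652) were also passed over. Those shown ranked 2, 3 and 4 among the rises and 2, 8 and 9 among the falls. Sequences are from RefSeq on build GRCm38.p6 and are written 5′ to 3′ on the gene's own strand. Capitals mark GC boxes (GGGCGG on either strand, written CCGCCC where they lie on the other strand) and octamers (ATGCAAAT). The members that rose were Zfp964 at chr8:69654306-69654462, Zfp263 at chr16:3743849-3744092 and Zfp719 at chr7:43579336-43579558, all on the plus strand.
Zfp964: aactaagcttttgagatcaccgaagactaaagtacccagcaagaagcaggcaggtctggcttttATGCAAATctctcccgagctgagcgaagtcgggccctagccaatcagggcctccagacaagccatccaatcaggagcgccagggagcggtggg
Zfp263: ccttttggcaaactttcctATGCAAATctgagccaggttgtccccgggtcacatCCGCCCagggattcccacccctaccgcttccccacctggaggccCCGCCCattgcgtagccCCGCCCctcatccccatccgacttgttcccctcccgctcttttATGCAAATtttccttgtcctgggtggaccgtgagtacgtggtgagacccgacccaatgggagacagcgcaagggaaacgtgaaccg
Zfp719: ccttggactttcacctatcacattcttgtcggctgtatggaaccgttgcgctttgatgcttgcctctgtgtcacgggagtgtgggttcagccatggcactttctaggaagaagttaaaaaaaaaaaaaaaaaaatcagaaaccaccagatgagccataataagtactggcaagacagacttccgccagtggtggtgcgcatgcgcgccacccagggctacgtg
The members that fell were Zfp324 at chr7:12965588-12965837 on the plus strand, Zfp141 at chr7:42505779-42506003 on the minus strand and Zfp692 at chr11:58306819-58307056 on the plus strand.
Zfp324: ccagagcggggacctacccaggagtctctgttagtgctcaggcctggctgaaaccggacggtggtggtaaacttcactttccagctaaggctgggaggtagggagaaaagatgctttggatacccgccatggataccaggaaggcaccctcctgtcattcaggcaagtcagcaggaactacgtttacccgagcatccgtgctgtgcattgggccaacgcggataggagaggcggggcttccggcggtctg
Zfp141: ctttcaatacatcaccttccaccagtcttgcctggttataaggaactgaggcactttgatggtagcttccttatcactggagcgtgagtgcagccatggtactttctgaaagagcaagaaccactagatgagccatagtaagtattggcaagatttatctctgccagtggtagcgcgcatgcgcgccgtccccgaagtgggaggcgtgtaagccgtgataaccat
Zfp692: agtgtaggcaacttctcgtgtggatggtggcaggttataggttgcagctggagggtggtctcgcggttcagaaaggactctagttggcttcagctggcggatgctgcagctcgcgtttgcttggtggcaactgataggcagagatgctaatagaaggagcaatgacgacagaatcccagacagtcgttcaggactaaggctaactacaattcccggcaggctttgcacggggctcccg

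Zfp719 rose and Zfp141 fell, yet these KRAB genes of chromosome 7 had the most alike upstream sequences of the 6: their best local alignment spanned 200 columns, of which 139 (69.5%) were identical. Zfp263 held 3 GC boxes, which began 196, 152 and 135 bases before the start. The octamer, a motif searched after the sequences had been seen, occurred once before Zfp964 and at a pair of places before Zfp263, 231 and 92 bases before the start. None of the 6 sequences held an AP-1 motif (TGANTCA), an interferon response-like motif or an NF-kB site.

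A promoter window of 300 bases (250 before the start and 50 after) was found for 180 of the 218 members. A GC box stood in 48.9% of these windows and in 35.9% of all 27025 windows, and the median number of CpG dinucleotides was 15 against 7. The 27025 windows are not limited to genes at 3 CPM or more, unlike the background used elsewhere. The part of expression level in these shares was not tested. An NF-kB site stood in 8.33% of member windows (8.18% of all), an AP-1 motif in 4.44% (7.93%), an interferon response-like motif in 2.22% (3.49%) and an octamer in 3.33% (1.75%). Among the 35 windows of members that rose with both fragments, 20 held a GC box, 3 an NF-kB site, 3 an AP-1 motif and 2 an octamer. Among the 41 windows of members that fell with both, the counts were 22, 5, 1 and 1. A match is a description of the letters in a window and not a bound site.

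A coding model was at hand for 217 members, and 121 of these had a KRAB box by sequence profile whereas 96 had none. The profile was built from KRAB boxes of numbered Zfp proteins and may miss atypical ones. Here and below, a member without the box is one in which this profile found none. Zfp607 had no model and was left unclassed. The number of C2H2 fingers ran from 0 to 36 with a median of 10, and the median was 12 with a KRAB box and 7 without. Zfp142 (36 fingers), Zfp462 (33) and Zfp236 (30) had the most. By the spacing searched, no finger was found in Zfp330, Zfp503, Zfp703, Zfp839 or Zfp935. A SCAN domain, which pairs proteins with each other, was found in 7 members (Zfp24, Zfp110, Zfp202, Zfp263, Zfp287, Zfp369 and Zfp444).

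Group medians of the members were 15.8 to 17.5 CPM (normalised to effective library size), and group maxima were 501 to 665 CPM. Members with a KRAB box had a median level of 11.6 normalised CPM and those without one 30.9. Per kilobase of transcript, the medians were 3.61 and 8.20 normalised CPM, over a range of 0.493 to 172 among all members. The length used is that of the transcript with the longest protein, whereas counts are per gene, so these values are approximate. The highest levels per kilobase were those of Zfp207 (172 normalised CPM per kb), Zfp346 (97.9), Zfp330 (88.0), Zfp106 (63.3) and Zfp706 (47.1), none of which carries a KRAB box. Zfp207 encodes a spindle and splicing protein and Zfp106 an RNA-binding protein that motor neurons need. The members nearest above the level were Zfp949, Zfp462 and Zfp473, with lowest group means of 3.11, 3.21 and 3.24 CPM. The nearest below were Zfp580, Zfp449 and Zfp947 at 2.92, 2.88 and 2.87 CPM.

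The first comparison asks which members changed with nApoE4 1–151 as compared to ControlA. By edgeR's quasi-likelihood test with Benjamini-Hochberg adjustment over all genes tested, 65 of the 218 members were higher (29.8%) and 55 lower (25.2%), and 98 did not pass an adjusted p of 0.05. The background shares were 29.2% higher and 31.2% lower, so that the share of risen members lay near that of other genes at this level. Most changes were small: the median log2 change was 0.03 (-0.01 in the background), and 6 members rose and 2 fell by more than 2-fold (5.81% and 4.38% of the background). Without ControlA replicate 2, 65 members were higher (29.8%) and 69 lower (31.7%), with background shares of 32.5% and 34.2%, and the median was 0.01, so that the excess of risen over fallen members was not seen without that library. All 3 treated samples lay above all 3 controls for 78 members (background 31.8%) and below them for 64 (34.6%).

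The members that rose furthest with nApoE4 1–151 were of different kinds. Zfp703 (chr8:26977336-26981462), which encodes a nuclear corepressor amplified in some human breast cancers, stood at 13.9, 14.7 and 14.7 normalised CPM in ControlA and at 44.9, 48.8 and 44.4 in treated cells. The groups lay far apart, and the gene was 3.18-fold higher (log2 1.67, SE 0.06, edgeR adjusted p 2.65e-08). Zfp697 (chr3:98381962-98431951, 11 fingers, no KRAB box) was at 17.7, 13.6 and 19.0 in ControlA and at 49.6, 56.0 and 48.4 with the fragment. ControlA replicate 2 was its lowest library, and every treated value was above every control (3.06-fold, log2 1.62, SE 0.12, edgeR adjusted p 2.14e-06). Zfp945 (chr17:22846697-22867309), a KRAB gene with 18 fingers in a chromosome 17 cluster, rose from 10.5, 9.88 and 10.5 to 29.5, 29.1 and 33.9 (log2 1.59, SE 0.08, edgeR adjusted p 1.52e-07). Zfp263 (chr16:3744099-3750790), a SCAN protein with 9 fingers that binds DNA, rose from 32.5, 33.5 and 32.1 to 84.8, 83.0 and 83.6, with little spread in either group (log2 1.36, SE 0.05, edgeR adjusted p 2.62e-08). Zfp964, the KRAB gene of chromosome 8 whose upstream sequence is printed above, went from 6.15, 7.14 and 5.78 to 15.1, 15.3 and 16.5 (log2 1.30, SE 0.10). The log2 changes of Zfp607, Zfp689, Zfp639, Zfp513 and Zfp455, which complete the 10 largest, were 1.02, 0.98, 0.95, 0.90 and 0.88.

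**Figure D1:**
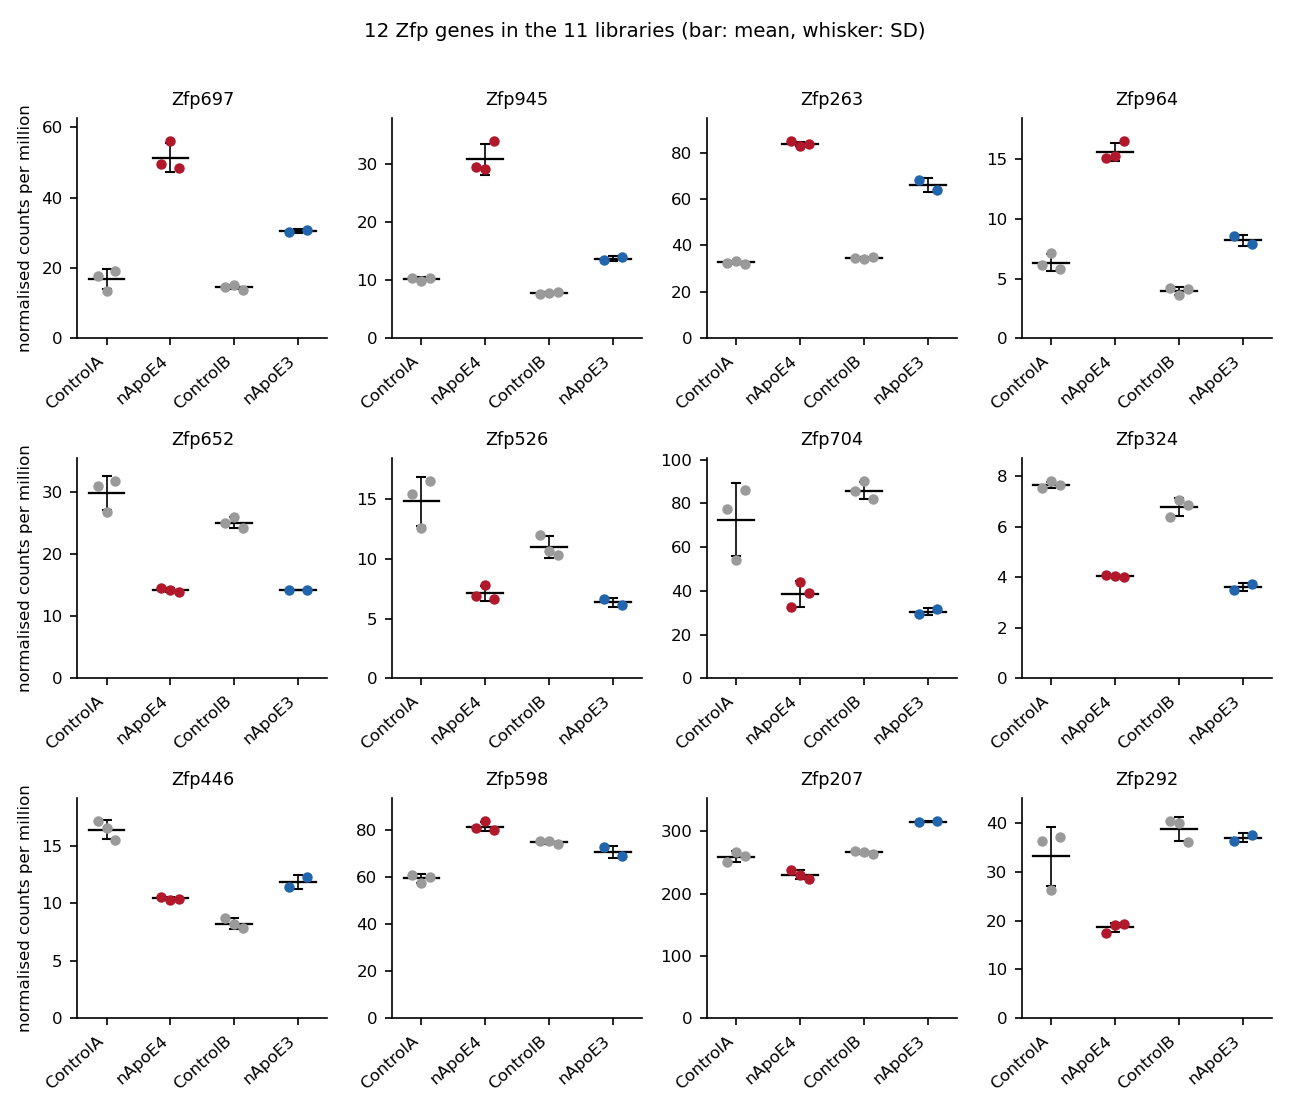
Normalised CPM of 12 members (vertical axes, from 0) in the 11 libraries, by group (3 ControlA, 3 nApoE4, 3 ControlB and 2 nApoE3 samples); points are libraries, bars group means and whiskers the SD. Zfp697, Zfp945, Zfp263 and Zfp964 lay above their controls with either fragment, Zfp652, Zfp526, Zfp704 and Zfp324 below, and Zfp446, Zfp598 and Zfp207 moved in opposite directions in the 2 experiments.

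The furthest falls were smaller in size. Zfp652 (chr11:95749067-95764715), a transcriptional repressor with 7 fingers, was at 31.0, 26.8 and 31.8 normalised CPM in ControlA and at 14.6, 14.2 and 13.9 with nApoE4 1–151, with no overlap (log2 -1.06, SE 0.08, edgeR adjusted p 2.7e-06). Zfp526 (chr7:25219849-25227876, 13 fingers) fell from 15.4, 12.5 and 16.5 to 6.92, 7.82 and 6.63 (log2 -1.05, SE 0.12), with the annotated gene Dedd2 (20.9 CPM) overlapping it. Zfp324 (chr7:12965838-12974244, KRAB, 9 fingers) fell from 7.56, 7.80 and 7.65 to 4.10, 4.04 and 4.03, a change in which neither group spread by much (log2 -0.91, SE 0.09, edgeR adjusted p 1.78e-05). Zfp704 fell from 77.7, 54.2 and 86.1 to 32.5, 44.2 and 39.0 (log2 -0.91, SE 0.17), and its lowest control, ControlA replicate 2, was closer to the treated samples than to the other controls. Zfp141, Zfp292, Zfp296, Zfp219, Zfp367 and Zfp217 completed the 10 largest falls, with log2 changes of -0.88, -0.83, -0.77, -0.76, -0.69 and -0.67. Zfp217 encodes a corepressor found amplified in breast cancer.

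With nApoE3 1–151 as compared to ControlB, 62 members were higher (28.4%, background 37.2%) and 101 lower (46.3%, background 42.5%), and 55 did not pass. The median log2 change was -0.09, against -0.02 for the background. Changes over 2-fold were again few, 3 up and 2 down (background 5.1% and 4.03%). Both treated samples lay above all controls for 69 members (background 41.2%) and below them for 111 (45.3%). These splits depend on the scaling. On library totals alone the count with nApoE3 1–151 was 46 higher (21.1%, background 25.3%) and 131 lower (60.1%, background 57.3%). With nApoE4 1–151 it was 48 higher (22.0%, background 22.8%) and 72 lower (33.0%, background 39.7%). That scaling moves the median log2 change of all genes to -0.13 and -0.09, and the members move with it.

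Zfp719 (chr7:43579559-43593710, KRAB, 13 fingers) rose furthest with nApoE3 1–151, from 8.47, 7.72 and 8.69 normalised CPM in ControlB to 18.9 and 19.4 (2.31-fold, log2 1.198, SE 0.06, edgeR adjusted p 1.68e-09). Zfp697 followed, from 14.7, 15.1 and 13.9 to 30.2 and 30.9 (log2 1.06, SE 0.05), and Zfp964, from 4.23, 3.60 and 4.15 to 8.56 and 7.92 (log2 1.04, SE 0.09). In each of the 3 genes the treated samples were clear of the controls. Zfp263 reached 68.3 and 64.05 from 34.5, 34.2 and 35.1 (log2 0.93, SE 0.04), Zfp703 30.0 and 27.1 from 15.5, 16.7 and 14.9 (log2 0.85, SE 0.06), and Zfp945 13.4 and 14.01 from 7.59, 7.77 and 7.98 (log2 0.81, SE 0.06). The other members among the 10 largest rises were Zfp462, Zfp513, Zfp438 and Zfp943, at log2 0.79, 0.79, 0.71 and 0.66.

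Zfp704 (chr3:9427010-9610085) fell furthest with nApoE3 1–151, from 85.7, 90.1 and 81.9 to 29.5 and 31.6, which is 2.82-fold (log2 -1.501, SE 0.05, edgeR adjusted p 2.98e-11). Zfp41 (chr15:75615200-75627448, 4 fingers) fell from 10.99, 10.5 and 10.0 to 4.24 and 4.14 (log2 -1.33, SE 0.07, edgeR adjusted p 8.44e-09). In both genes the treated samples lay far below every control. Zfp324, Zfp606, Zfp652, Zfp526, Zfp219, Zfp442, Zfp763 and Zfp39 completed the 10 largest falls, between log2 -0.91 and -0.77. Of these, Zfp606, Zfp442, Zfp763, Zfp39 and Zfp324 carry a KRAB box.

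Taking the fragments side by side, 44 members were higher with both (20.2%, background 22.6%) and 47 lower with both (21.6%, background 25.3%). A further 48 members passed the test as lower with nApoE3 1–151 alone (22.0%, background 14.9%), and 14 as higher with it alone (6.42%, background 12.3%). With nApoE4 1–151 alone, 15 were higher (6.88%, background 4.36%) and 4 lower (Zfp292, Zfp296, Zfp524 and Zfp764, background 3.52%). Passing in one experiment and not in the other does not show that the fragments differed. Called with neither were 36 members (16.5%, background 12.4%). The log2 changes of the 2 experiments, which share no samples, had a Spearman correlation of 0.73 over the 218 members (0.74 over the background), and 163 members had the same sign in both (74.8%, background 77.5%). Genes are not independent replicates, and this is a description.

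**Figure D2:**
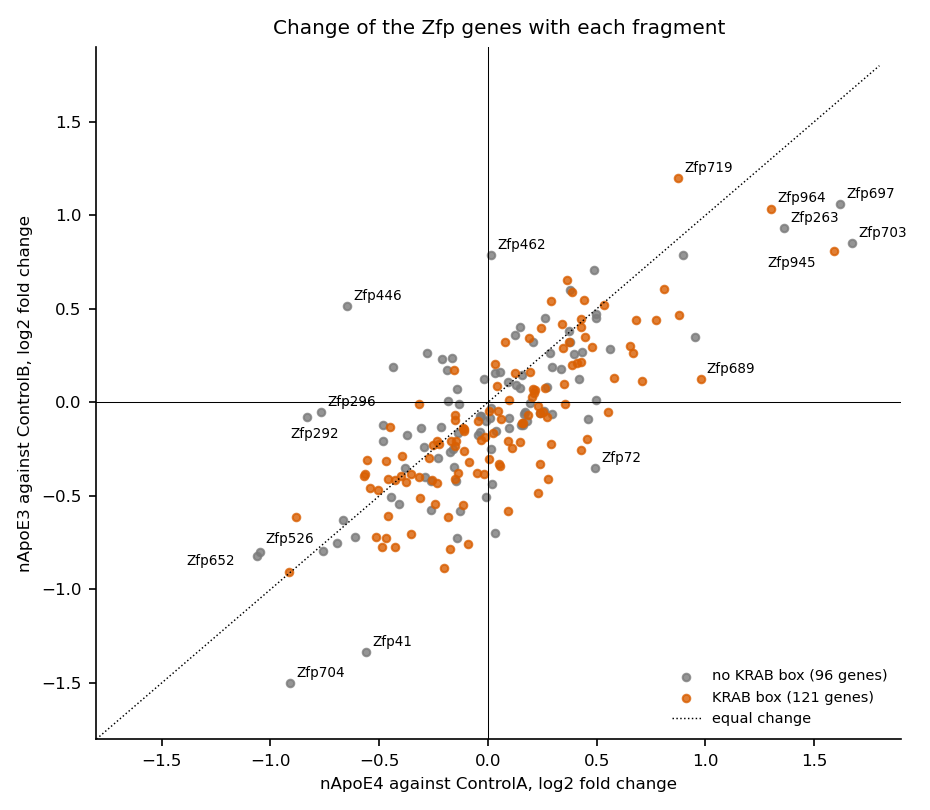
Log2 fold change of each member with nApoE4 1–151 against ControlA (horizontal axis) and with nApoE3 1–151 against ControlB (vertical axis). Orange points are the 121 members with a KRAB box, grey points the 96 without one, and the dotted line marks equal change; Zfp446, at -0.65 and 0.52, is the member farthest from it.

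The fragments' changes were then compared directly, as the change with nApoE4 1–151 minus the change with nApoE3 1–151 over all 11 libraries. This difference was positive for 47 members (21.6%, background 18.5%) and negative for 13 (5.96%, background 16.8%), with a median of 0.10 (0.01 in the background). Without ControlA replicate 2 the counts were 56 (25.7%, background 23.8%) and 22 (10.1%, background 20.6%). Of the 47 positive differences, 19 belonged to members that were lower with nApoE3 1–151 and did not pass with nApoE4 1–151, 10 to members that were higher with nApoE4 1–151 alone, 9 to members higher with both, 6 to members higher with nApoE4 1–151 and lower with nApoE3 1–151, and 3 to members lower with both. Among these 47, the commonest pattern was a fall with nApoE3 1–151 with no call for nApoE4 1–151. This breakdown was not made for the background. Of the background, 14.9% passed as lower with nApoE3 1–151 alone and 4.36% as higher with nApoE4 1–151 alone. The nApoE3 experiment could also pass smaller changes, and the part of this in the breakdown was not tested.

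Among the members that rose with both fragments, the rise with nApoE4 1–151 was larger for Zfp703 (difference 0.81, edgeR adjusted p 3.2e-05), Zfp945 (0.77, 9.31e-05), Zfp639 (0.59, 0.000165) and Zfp263 (0.42, 0.000282). For Zfp964 the difference of 0.25 and for Zfp719 that of -0.34 did not pass (edgeR adjusted p 0.194 and 0.0609). Zfp689, a KRAB gene that overlaps the annotated gene B130055M24Rik (11.5 CPM), was at 3.12, 3.88 and 3.88 in ControlA and 7.39, 6.78 and 7.20 with nApoE4 1–151. In the other experiment it stood at 3.36, 4.04 and 3.28 in ControlB and 3.83 and 3.97 with nApoE3 1–151, within the spread of the controls. Its difference of 0.84 was the largest positive one (SE 0.17, edgeR adjusted p 0.00214).

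Among the members that fell, Zfp41 fell further with nApoE3 1–151 (log2 -0.56 and -1.33, difference 0.76, edgeR adjusted p 0.00016). Zfp606 and Zfp442, both KRAB genes, fell with nApoE3 1–151 and were at log2 -0.20 and -0.18 with nApoE4 1–151, which did not pass, and their differences of 0.67 and 0.60 did. Zfp324, Zfp219, Zfp367 and Zfp217 fell with both, and their differences of -0.02 (SE 0.11), 0.03 (SE 0.07), 0.04 (SE 0.08) and -0.05 (SE 0.12) did not pass. Zfp292 fell from 36.2, 26.2 and 37.1 to 17.5, 19.0 and 19.3 with nApoE4 1–151 and stood at 40.3, 39.97 and 36.0 in ControlB and 36.4 and 37.6 with nApoE3 1–151. Its difference was -0.77 (SE 0.16, edgeR adjusted p 0.00258), and that of Zfp296 was -0.73 (SE 0.14, edgeR adjusted p 0.00226).

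A few members passed the test in opposite directions in the 2 experiments. Zfp113, Zfp598, Zfp664, Zfp72, Zfp788 and Zfp938 were higher with nApoE4 1–151 and lower with nApoE3 1–151 (2.75% of members, background 2.3%), and Zfp207, Zfp446, Zfp503 and Zfp654 were the reverse (1.83%, background 2.3%). Zfp446 (chr7:12976196-12985717) had the largest difference of all members, -1.18 (SE 0.10, edgeR adjusted p 1.7e-06). It fell from 17.2, 16.6 and 15.5 to 10.6, 10.3 and 10.4 with nApoE4 1–151 and rose from 8.72, 8.17 and 7.86 to 11.4 and 12.3 with nApoE3 1–151. The treated groups thus lay close together, whereas the untreated groups lay far apart (ControlB minus ControlA log2 -1.01, SE 0.07). Zfp446 follows Zfp324 on chromosome 7, and Zfp324 fell with both fragments.

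Zfp598 (chr17:24669687-24682023), an E3 ubiquitin ligase that marks collided ribosomes, rose from 60.8, 57.4 and 60.1 to 80.9, 83.7 and 79.8 with nApoE4 1–151. With nApoE3 1–151 it went from 75.5, 75.2 and 73.9 to 72.6 and 68.8, a small fall that passed the test (log2 -0.09, SE 0.03, edgeR adjusted p 0.025). The difference was 0.54 (SE 0.06, edgeR adjusted p 4.47e-05), and here too the untreated groups differed. Zfp207 (chr11:80383279-80408561) was at 250.3, 267 and 261 in ControlA, 239, 229 and 224 with nApoE4 1–151, 268, 267 and 264 in ControlB and 315 and 316 with nApoE3 1–151. Its controls did not differ by the test (log2 0.02, edgeR adjusted p 0.625), and its difference was -0.41 (SE 0.06, edgeR adjusted p 0.000344). Zfp72, with 11 fingers and no KRAB box by the profile, rose with nApoE4 1–151 (log2 0.49) and fell with nApoE3 1–151 (log2 -0.35). Zfp462 (33 fingers) passed with a difference of -0.78 (edgeR adjusted p 0.042), at a lowest group mean near the level of the rule, and this call was lost when any of 8 libraries was left out.

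Members with and without a KRAB box were compared by their counts. With nApoE4 1–151, 37 of 121 KRAB members were higher (30.6%, background 29.2%) and 29 lower (24.0%, background 31.2%). Of 96 members without the box, 27 were higher (28.1%) and 26 lower (27.1%). Without ControlA replicate 2, 36 KRAB members were higher (29.8%, background 32.5%) and 38 lower (31.4%, background 34.2%). Members without the box were then 28 higher (29.2%) and 31 lower (32.3%). With nApoE3 1–151, 29 KRAB members were higher (24.0%, background 37.2%) and 60 lower (49.6%, background 42.5%), and 32 members without the box were higher (33.3%) and 41 lower (42.7%). The median log2 changes of KRAB members were 0.05 and -0.14 with the nApoE4 and nApoE3 fragments, and those of members without the box 0.01 and -0.06. The difference between the fragments was positive for 26 KRAB members (21.5%, background 18.5%) and negative for 2 (1.65%, background 16.8%), with a median of 0.16. Without the box it was positive for 20 (20.8%) and negative for 11 (11.5%), with a median of 0.07. Over all settings tried, 12 to 33 KRAB members had a positive and 0 to 7 a negative difference, the highest count of 7 being that without ControlA replicate 2, where the background rose to 20.6%. In ControlB as compared to ControlA, 51 KRAB members were higher (42.1%, background 42.1%) and 26 lower (21.5%, background 31.0%), with a median of 0.13. Without the box, 29 were higher (30.2%) and 31 lower (32.3%), with a median of 0.03. Control levels enter the difference between the fragments, and their part in it was not tested. KRAB status goes with level here, since KRAB members were the lower expressed, and the part of level in these counts was not tested.

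**Figure D3:**
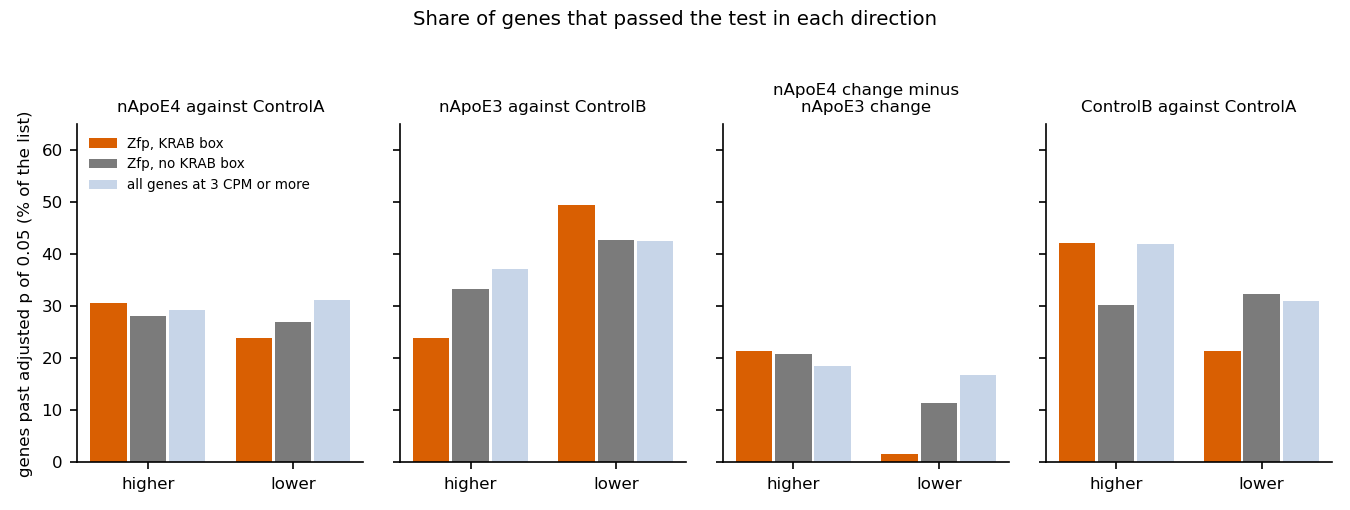
Share of genes past an adjusted p of 0.05 in each direction (percent of the list) in 4 comparisons, for members with a KRAB box (121), members without one (96) and all 9547 genes at 3 CPM or more. For the change with nApoE4 1–151 minus that with nApoE3 1–151, 1.65% of KRAB members were lower, against 16.8% of all genes.

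Lists of members with known roles were also followed. Of 9 members that act on RNA or ribosomes, 3 were higher (33.3%, background 29.2%) and 2 lower (22.2%, background 31.2%) with nApoE4 1–151, and 3 were higher (33.3%, background 37.2%) and 4 lower (44.4%, background 42.5%) with nApoE3 1–151, which is near the background. Zfp638, which binds RNA and silences unintegrated retroviral DNA, rose by log2 0.38 and 0.32 with the nApoE4 and nApoE3 fragments. Zfp622, a factor in the maturation of the large ribosomal subunit, rose by 0.26 and 0.45. Zfp326, which links RNA polymerase to splicing, fell by 0.37 and 0.17 on the log2 scale, further with nApoE4 1–151 (difference -0.21, edgeR adjusted p 0.032). Zfp106 was at log2 0.01 with nApoE4 1–151, which did not pass, and at -0.08 with nApoE3 1–151, which did. For Zfp346, which binds double-stranded RNA, the values were -0.04 and -0.07 and neither passed. Zfp110, a partner of the p75 neurotrophin receptor with a KRAB and a SCAN domain, rose by 0.67 and 0.27 (difference 0.39, edgeR adjusted p 0.0018), and its paralog Zfp369 was at 0.28, which did not pass, and -0.41, which did.

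Of 17 transcription regulators without a KRAB box, 2 were higher (11.8%) and 7 lower (41.2%) with nApoE4 1–151 (background 29.2% and 31.2%). With nApoE3 1–151, 6 were higher (35.3%) and 7 lower (41.2%), near the background of 37.2% and 42.5%. Zfp148, which binds GC-rich DNA, fell by 0.41 and 0.55 on the log2 scale. Zfp687, of the complex with Zmynd8, fell by 0.45 and 0.51, with the gene Pi4kb (30.4 CPM) overlapping it. Zfp143, an activator at many promoters, and Zfp281 were at 0.03 and 0.09 with nApoE4 1–151, without passing, and were higher by 0.16 and 0.11 with nApoE3 1–151. Zfp410, the activator of the chromatin remodeller Chd4, was at -0.03 and -0.07, and neither passed. Of 5 KRAB members with a known target, 1 was higher and 2 lower with nApoE4 1–151 (background 29.2% and 31.2%), and 1 was higher and 3 lower with nApoE3 1–151 (background 37.2% and 42.5%). The member that rose with both was Zfp809, which silences retroviruses through their primer binding site. It stood at 24.7, 22.9 and 26.95 in ControlA and 33.1, 31.9 and 32.3 with nApoE4 1–151, and at 37.7, 37.7 and 36.4 in ControlB and 56.8 and 56.0 with nApoE3 1–151 (log2 0.39 and 0.59). Zfp961 fell with both, by 0.52 and 0.72 on the log2 scale. Zfp568, the repressor of a placental Igf2 promoter, fell by 0.25 and 0.23, and Zfp445, which guards imprints, was at 0.21 and 0.07 without passing.

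Members were concentrated on chromosomes 7 (53 members), 17 (27), 13 (21) and 8 (17). With members joined when the next start lay within 500000 bases, 9 clusters held 5 members or more and 79 members in all (36.2%), among them 65 of the 121 KRAB members (53.7%) and 14 of the 96 without the box (14.6%). With nApoE4 1–151, 8 of the 9 clusters held both members that rose and members that fell (background 29.2% higher and 31.2% lower). The exception was the cluster at chr8:69209018-69774911, where 3 of 6 members rose and none fell, among them Zfp964. The largest cluster (chr17:21008941-23193284, 14 KRAB members) had 7 higher and 3 lower with nApoE4 1–151. With nApoE3 1–151 it had 6 higher and 3 lower (background 37.2% higher and 42.5% lower). Zfp945 rose there by log2 1.59 whereas Zfp946 fell by 0.54 with nApoE4 1–151. The second cluster on that chromosome (chr17:32765496-33631716, 9 members) had 2 higher and 5 lower with nApoE3 1–151.

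With nApoE3 1–151, where 42.5% of the background was lower and 37.2% higher, lower members outnumbered higher ones in some clusters. The difference between the fragments was positive for 18.5% of the background and negative for 16.8%. At chr6:47835633-48086986, 5 of 6 members were lower and 1 higher with nApoE3 1–151 (median log2 change -0.38), as compared to 2 lower and 1 higher with nApoE4 1–151 (median -0.09), and the difference was positive for 4 of them. At chr7:127233061-127885996, 7 of 10 members were lower and 1 higher with nApoE3 1–151, and the difference was positive for 4, Zfp689 included, and negative for 1. At chr7:24081877-24515682, 4 of 6 were lower with nApoE3 1–151, none were higher, and the difference was positive for 3. In the cluster at chr13:67121659-67789082 all 11 members carry a KRAB box. There, 4 were higher and 2 lower with nApoE4 1–151 (background 29.2% and 31.2%), and 5 were higher and 4 lower with nApoE3 1–151. At chr8:69209018-69774911, 3 of 6 members were higher and 1 lower with nApoE3 1–151. Near-identical cluster neighbours can share reads, and how the counting split these is not known, so that changes within a cluster are uncertain.

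**Figure D4:**
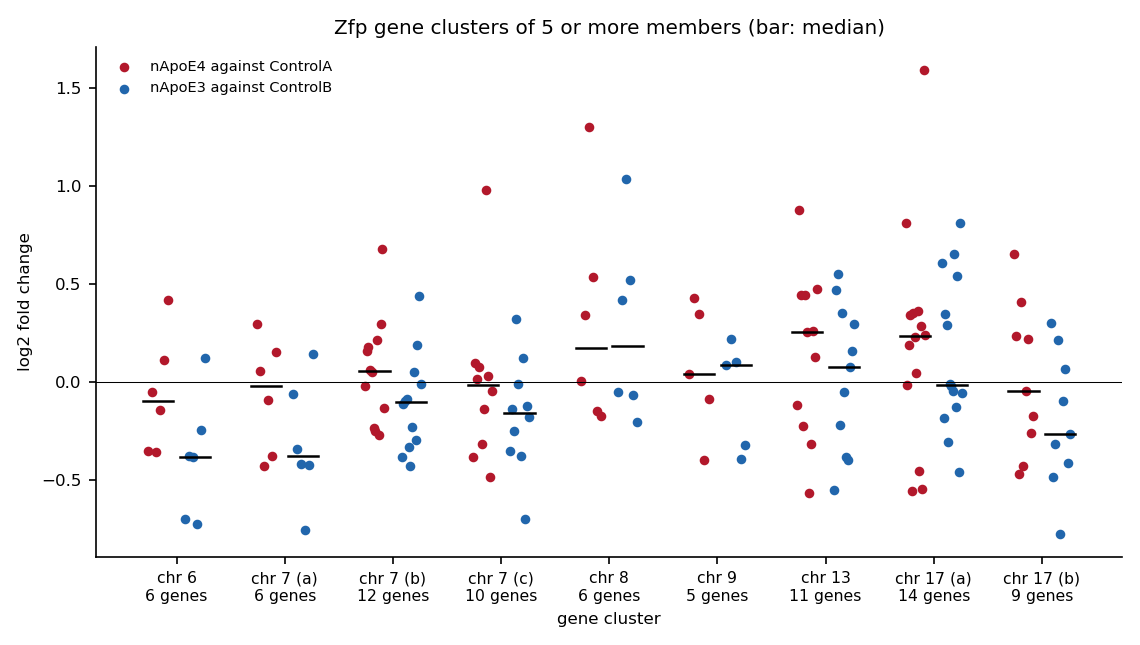
Log2 fold change (vertical axis) of the members of 9 gene clusters of 5 or more members, with nApoE4 1–151 (red) and nApoE3 1–151 (blue); each point is a gene and bars are medians. In most clusters members lay on both sides of 0, and on chromosome 6 the medians were -0.09 and -0.38.

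The RNA of genes for proteins through which KRAB members act was also followed, in a list of 39 genes. This list was chosen broadly and also holds more general chromatin genes, among them Dnmt1, Uhrf1 and Suv420h2. Protein was not measured in these data. With nApoE4 1–151, 3 were higher (7.69%, background 29.2%) and 17 lower (43.6%, background 31.2%), and with nApoE3 1–151 8 were higher (20.5%, background 37.2%) and 24 lower (61.5%, background 42.5%). Trim28 was at a mean of 371 normalised CPM in ControlA and 245 with nApoE4 1–151 (log2 -0.60, SE 0.07), and at 342 in ControlB and 274 with nApoE3 1–151 (log2 -0.33, SE 0.02). The fall was larger with nApoE4 1–151 (difference -0.28, edgeR adjusted p 0.0125). Setdb1 fell with nApoE4 1–151 from 125 to 100.3 (log2 -0.32), and stood at 117 and 118 in the other experiment (difference -0.33, edgeR adjusted p 0.00293). Dnmt1, which maintains DNA methylation, fell from 344 to 171 and from 383 to 172, and its partner Uhrf1 by 1.04 and 1.43 on the log2 scale. The histone methyltransferase gene Suv420h2 had the largest falls past the test, by 1.44 and 1.67. The HP1 genes Cbx3 and Cbx5 fell with both fragments as well. In the other direction, Atf7ip2, an interaction partner of Setdb1, rose from 12.3 to 18.7 and from 22.6 to 81.4 (difference -1.25, edgeR adjusted p 1.05e-06), and Fam208a and Pphln1, of the HUSH silencing complex, rose by 0.72 and 0.45 and by 0.23 and 0.28. Mphosph8, of the same complex, was at 0.05 with nApoE4 1–151, which did not pass, and fell by 0.18 on the log2 scale with nApoE3 1–151. In the untreated cells 27 of the 39 genes were higher in ControlB than in ControlA (69.2%, background 42.1%) and 2 lower (5.13%, background 31.0%), with a median log2 difference of 0.33.

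**Figure D5:**
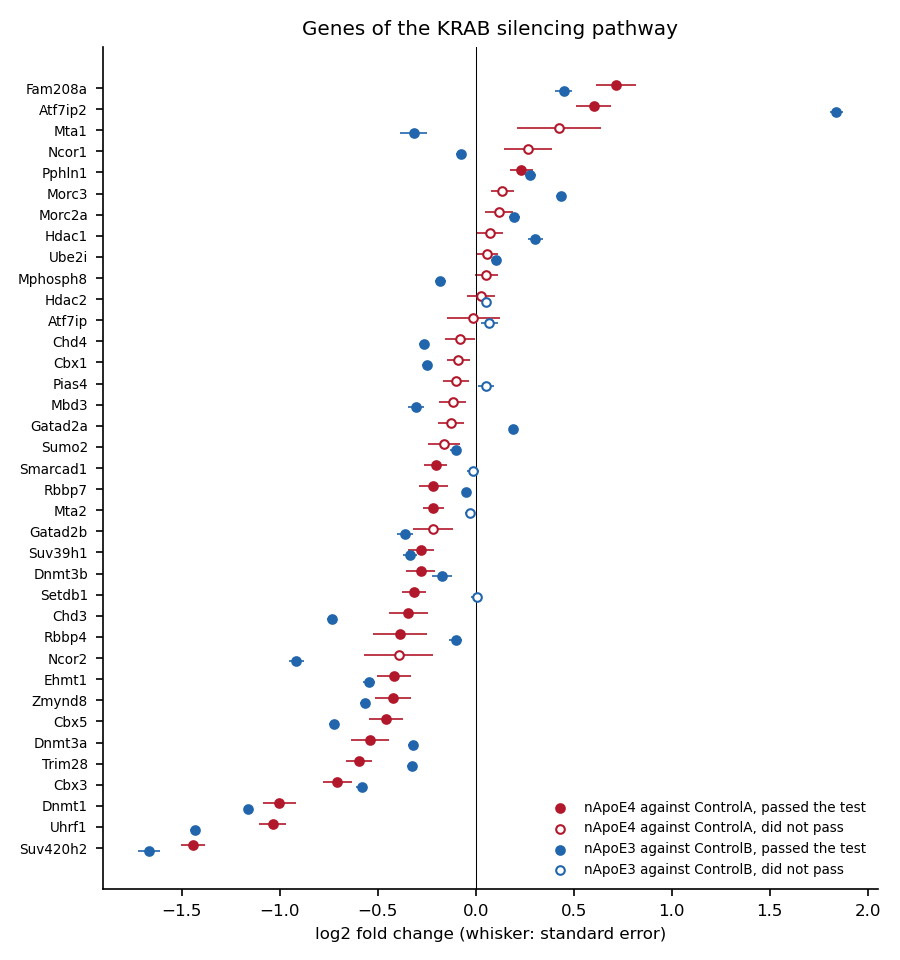
Log2 fold change (horizontal axis, whiskers are standard errors) of genes of the KRAB silencing pathway and related chromatin genes with nApoE4 1–151 (red) and nApoE3 1–151 (blue). Filled points passed an adjusted p of 0.05. Ehmt2 and Suv39h2, at under 5 normalised CPM, are left out, and Suv420h2, Uhrf1 and Dnmt1 lie farthest to the left.

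Other families of zinc finger genes were set beside the members, with 32 Zbtb, 7 Zkscan and 7 Zscan genes at the level of the rule. Of these 46, 15 were higher (32.6%) and 10 lower (21.7%) with nApoE4 1–151 (background 29.2% and 31.2%), and 9 were higher (19.6%) and 22 lower (47.8%) with nApoE3 1–151 (background 37.2% and 42.5%). The difference between the fragments was positive for 16 of them (34.8%) and negative for 2 (4.35%), against 21.6% and 5.96% of the members and 18.5% and 16.8% of the background.

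The untreated groups differed in many members before any fragment was given. In ControlB as compared to ControlA, 81 members were higher (37.2%, background 42.1%) and 57 lower (26.1%, background 31.0%), with a median log2 difference of 0.09 (0.07 in the background). Libraries of the 2 groups did not overlap for 97 members that were above (background 46.1%) and 60 that were below (31.7%). The largest gap in each direction was in a member without a KRAB box. Zfp358 (9 fingers) stood at 25.2, 27.9 and 25.8 in ControlA and at 7.51, 7.57 and 6.74 in ControlB (log2 -1.87, SE 0.07, edgeR adjusted p 4.51e-07). Zfp503, a corepressor paralogous to Zfp703, stood at 9.65, 9.43 and 10.9 and at 27.4, 29.4 and 31.0 (log2 1.53, SE 0.08, edgeR adjusted p 1.43e-06). Zfp462, Zfp28 (with a KRAB box), Zfp362 and Zfp446 were lower in ControlB by 1.58, 1.21, 1.15 and 1.01 on the log2 scale. Zfp251, Zfp763, Zfp946 and Zfp952, all with a KRAB box, were higher by 0.93, 0.86, 0.83 and 0.82. Zfp251 was at 22.3, 23.2 and 22.9 in ControlA and 44.8, 44.2 and 42.8 in ControlB, and fell to 30.1 and 28.9 with nApoE3 1–151 alone (log2 -0.58), with 24.9, 23.1 and 24.7 after nApoE4 1–151. In the cluster at chr17:21008941-23193284, 12 of 14 members were higher in ControlB and 1 lower. These comparisons share control libraries with those of the fragments.

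The rule leaves out genes that were near 0 in some group, and the largest changes of numbered Zfp genes were among these. The following were picked after their values were seen. Zfp811, a KRAB gene of chromosome 17 with 13 fingers, had 12, 12 and 7 counts in ControlA and 1366, 1567 and 1323 with nApoE4 1–151, and 15, 7 and 20 counts in ControlB and 1676 and 1490 with nApoE3 1–151. The log2 changes were 7.20 (SE 0.16, edgeR adjusted p 9.84e-10) and 6.94 (SE 0.14, edgeR adjusted p 6.29e-13). Zfp395 fell from 39.7, 38.4 and 43.0 normalised CPM to 2.47, 2.81 and 2.90 with nApoE4 1–151 and from 25.2, 25.4 and 22.8 to 2.22 and 1.84 with nApoE3 1–151. Zfp667 fell from 5.92, 6.02 and 6.43 to 0.746, 1.11 and 1.11, and from 6.66, 5.99 and 7.01 to 1.22 and 1.72. Zfp827 rose from 2.07, 1.36 and 3.00 to 8.14, 10.2 and 7.99, and from 0.977, 0.694 and 0.727 to 4.02 and 3.58. In all 4 genes treated and untreated libraries were clear of each other in both experiments. Of the genes below the level that could be tested, 16 of 67 were higher and 10 lower with nApoE4 1–151 (28.6% and 28.6% of all genes tested), and 8 of 69 higher and 25 lower with nApoE3 1–151 (33.1% and 34.6%).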

How the data were processed

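RNA of 11 BV2 samples was sequenced as single 75-base reads. Per the methods and the submitters' processing notes, reads were trimmed with Trim Galore 0.5.0, checked with FastQC 0.11.8, aligned to GRCm38.p6 with HISAT2 2.1.0 and counted per gene with HTSeq 0.11.0, and the deposited values are raw counts per gene. The annotation release, strand setting and overlap mode are not given in the sources used here, so that reads of a member that overlaps another gene, as 45 of the 218 do, may be shared or lost. Lines of HTSeq that name no gene were left out of library sizes, and 76.0% to 77.7% of reads fell on genes.

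The members and gene lists were chosen with earlier results of these data known. Counts were fitted with edgeR 4.0.16 (R 4.3.3): filterByExpr, TMM scaling (factors 0.916 to 1.07) and the quasi-likelihood test, with p-values adjusted over all genes tested by the Benjamini-Hochberg method and genes called at an adjusted p under 0.05. Each fragment was fitted with its own controls, the difference between fragments over all 11 samples and ControlB against ControlA over the 6 controls. Levels (normalised CPM) are counts on TMM-scaled library sizes, except in the rule and for markers and overlapping genes, which use plain CPM. SE is the absolute log2 change divided by the square root of F. With 3 counts as the floor, the depth allows levels down to 0.0755 CPM or less in each library, and this covers counting error only. Alternatives were DESeq2 1.42.0 (the Wald test the study used), DESeq2 size factors, library totals, other low-count filters, 1 fit of all samples, the replicate number as a block, other level rules and leaving out each sample.

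KRAB boxes were found with a profile of 39 positions (pyhmmer 0.12.3, E-value under 1e-05) and fingers by the spacing C-x(2 to 4)-C-x(12)-H-x(3 to 5)-H, both in proteins translated from coding transcripts of GENCODE M21, in place of the RefSeq proteins first planned. Positions and upstream sequences come from RefSeq tables of GRCm38.p6. Named genes are the 10 largest rises and falls for each fragment, the 5 largest in each direction for the difference and for the controls, members nearest the level, the 5 most abundant members and those of the role lists. The scripts were tested on simulated data.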

Additional observations from a re-analysis of the deposited data

Results flagged for a closer look

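Results are listed here where the changes with the 2 fragments differed by the test over all 11 libraries (edgeR quasi-likelihood test, Benjamini-Hochberg adjustment), given as the log2 change with nApoE4 1–151 minus that with nApoE3 1–151. Fragment and experiment cannot be told apart in any of them. The difference was positive for 47 members and negative for 13, and values are given for those among the named genes, 17 positive and 9 negative, and for the remaining negative ones.

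Among the members that rose with nApoE4 1–151, the difference was 0.84 for Zfp689, 0.83 for Zfp72, 0.81 for Zfp703, 0.77 for Zfp945, 0.64 for Zfp949, 0.59 for Zfp639, 0.56 for Zfp607, 0.54 for Zfp697, 0.54 for Zfp598, 0.47 for Zfp131, 0.42 for Zfp263 and 0.39 for Zfp110. Among members that fell with nApoE3 1–151 and not or less with nApoE4 1–151, it was 0.76 for Zfp41, 0.67 for Zfp606, 0.66 for Zfp251, 0.60 for Zfp442 and 0.48 for Zfp358. The untreated groups of Zfp251 and Zfp358 also differed, by 0.93 and -1.87.

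Negative differences were -1.18 for Zfp446, -0.78 for Zfp462, -0.77 for Zfp292, -0.73 for Zfp296, -0.64 for Zfp503, -0.41 for Zfp207, -0.38 for Zfp668, -0.37 for Zfp516 and -0.21 for Zfp326. The other members with a negative difference, named here after their values were seen, were Zfp654 (-0.56), Zfp275 (-0.46), Zfp867 (-0.34) and Zfp944 (-0.33). In Zfp446, Zfp462, Zfp296 and Zfp503 the untreated groups differed too, by -1.01, -1.58, -0.63 and 1.53. Samples far from their group were not looked for gene by gene, since groups of 2 or 3 are too small for that test.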

How the results depend on the processing

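The counts of members called stayed within 1.5 times those reported except for the difference between the fragments. There, 22 members were positive (10.1%, background 9.72%) and 6 negative (2.75%, background 9.08%) with the replicate number as a block. Without ControlA replicate 2, 22 were negative (10.1%, background 20.6%). Whether equally numbered samples were paired is not stated. Their residuals correlated at -0.0715, -0.253 and -0.103 in the nApoE4 experiment and at 0.00843 and -0.0139 in the other. Residuals from the means of such small groups depend on each other, so these values cannot decide whether samples were paired. With the block, 58 members were higher (26.6%, background 24.9%) and 46 lower (21.1%, background 26.4%) for nApoE4 1–151. For nApoE3 1–151, 60 were higher (27.5%, background 36.8%) and 101 lower (46.3%, background 41.9%). For ControlB against ControlA, 74 were higher (33.9%, background 40.2%) and 52 lower (23.9%, background 29.1%).

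Medians moved by more than the replicate SD. On library totals they were -0.0593 for nApoE4 1–151, -0.220 for nApoE3 1–151, 0.156 for the difference and 0.0430 for the controls. With a minimum of 5 CPM the nApoE4 median was 0.0553 and that of the controls 0.102, with 10 CPM the nApoE3 median was -0.0545, and with 1 CPM the difference was 0.136. Over every numbered Zfp gene tested they were 0.0425 for nApoE4 1–151, 0.138 for the difference and 0.0775 for the controls. The cause was not tested.

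Leaving out 1 sample at a time gave 53 to 69 higher and 48 to 69 lower for nApoE4 1–151 (69 lower without ControlA replicate 2, where the median was 0.00862), 53 to 64 and 88 to 100 for nApoE3 1–151, 32 to 57 positive and 9 to 22 negative for the difference, and 70 to 83 and 49 to 63 for the controls. Without nApoE3 replicate 1 or 2 a lone nApoE3 sample was left, which was taken to vary like the other groups. The nApoE3 medians were then -0.0689 and -0.107, and those of the difference 0.0948 and 0.125. Library totals for named genes and the KRAB counts under each setting were added after seeing the data. Of named genes, Zfp462 alone lost a call, its difference, under library totals, the block and 8 of the leave-outs (-0.63 to -0.92). The part of counting error in the spread of low members was not tested.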
